A study of Mus musculus with 38 samples.

Results

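Atf4, Chac1, Ddit3, Ddit4, Trib3, Asns, Sesn2 and Ppp1r15a, which belong to the integrated stress response, are 8 of the 23420 genes counted in 38 RNA sequencing libraries of dentate gyrus granule cells. They were chosen by symbol, with earlier results of these data known, and all 8 are in the count files of every library. All animals were adult male Arc::dVenus mice of 8 to 12 weeks on a C57BL/6J background, in which the promoter of the activity-regulated gene Arc drives a destabilized fluorescent reporter. The fear conditioned group (FC, 12 mice) received tones and foot shocks in a chamber. The no-shock group (NS, 4 mice) went through the chamber protocol without a shock, and the home-cage group (HC, 3 mice) was not exposed to the chamber. From each mouse, 10 dVenus+ cells and 10 neighboring dVenus- cells were aspirated, which in FC and NS mice was done 24 h after the session, and each pool of 10 cells gave 1 library. The dVenus+ cells are thus defined by reporter fluorescence at collection, and each comparison of dVenus+ against dVenus- cells lies within a mouse.

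The integrated stress response starts with kinases that sense amino acid shortage, unfolded protein in the endoplasmic reticulum, double-stranded RNA or heme lack and that phosphorylate the initiation factor eIF2. Translation then falls in general, while translation of the transcription factor ATF4 rises, and ATF4 switches on genes of amino acid supply, tRNA charging and, when stress lasts, cell death. In hippocampal neurons, phosphorylation of eIF2 and ATF4 are known to act on long-lasting synaptic plasticity and memory. Much of the control of ATF4 lies in its translation, which RNA counts do not read.

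ATF4 binds, with partner proteins of the C/EBP family, to a composite element with the letters TGATGNAA. This element and the full cAMP response element TGACGTCA, which CREB and ATF proteins bind, were searched on both strands of the 300 bases around each start site (RefSeq, GRCm38.p6; 250 bases before and 50 after it). All 8 genes had such a promoter sequence. The composite element was present in 3 of the 8 genes, Chac1, Trib3 and Asns, and in 3.97% of 32851 promoters, while the cAMP response element was present in Ppp1r15a alone and in 1.79% of promoters. The 4 matches are shown as 30 bases each, 5′ to 3′ on the strand of the gene, with the match in capitals, because ATF4 or CREB are known to bind these letters. A match is a description of the sequence, and binding was not measured.
Chac1, first base of the match at position -193 from the start site, chr2:119351038-119351067, plus strand: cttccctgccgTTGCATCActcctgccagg
Trib3, at position 15, chr2:152344028-152344057, minus strand: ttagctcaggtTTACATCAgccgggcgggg
Asns, at position -23, chr6:7693214-7693243, minus strand: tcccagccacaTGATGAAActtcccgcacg
Ppp1r15a, at position -12, chr7:45526262-45526291, minus strand: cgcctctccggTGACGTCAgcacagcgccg
In Chac1 and Trib3 the composite element lies on the strand opposite to the gene. Neither element was found within these 300 bases of Atf4, Ddit3, Ddit4 or Sesn2.

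Between 1352288 and 18394761 reads per library were counted on genes. Levels are given as normalized CPM, counts on a gene relative to all counts on genes (CPM, the usual per-million unit) after TMM scaling over all 38 libraries. A count of 0 allows up to 3 counts, which corresponded to between 0.163 and 2.22 CPM before that scaling, and this limit covers counting error only. Arc was higher in dVenus+ cells in 12 of 12 FC, 4 of 4 NS and 3 of 3 HC mice. The FC dVenus- libraries of mice 6, 7 and 14 nevertheless held 1276, 1095 and 2549 counts on Arc. The sample IDs of FC mice carry 3 prefixes (2, 4 and 6 animals), and those of NS and HC mice share a further one. Animals with the same prefix are called a set here. The study's methods describe repeated experiments of these sizes for FC mice, but no label says what a prefix stands for, and levels of FC mice cannot be told apart from the set when placed beside those of NS or HC mice. For 10 of the 14 NS and HC libraries the description label names another sample ID than the characteristics do, and the titles and characteristics were followed. The cells were granule cells by their labels, and all 9 granule cell markers examined (Prox1, Calb1, Dsp, Rasgrp1, C1ql2, Stxbp6, Camk2a, Slc17a7 and Neurod1) were counted in every group. All 6 oligodendrocyte markers examined were counted in every group as well. In FC dVenus+ libraries the median sum was 1062 CPM for granule cell, 318 for microglial, 253 for astrocyte and 509 for oligodendrocyte markers. In NS dVenus+ libraries these were 1198, 914, 1675 and 1332 CPM, and in HC dVenus+ libraries 1210, 1451, 1726 and 1316 CPM. In the dVenus- libraries of FC, NS and HC mice the granule cell markers had the highest of these medians.

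**Figure D1:**
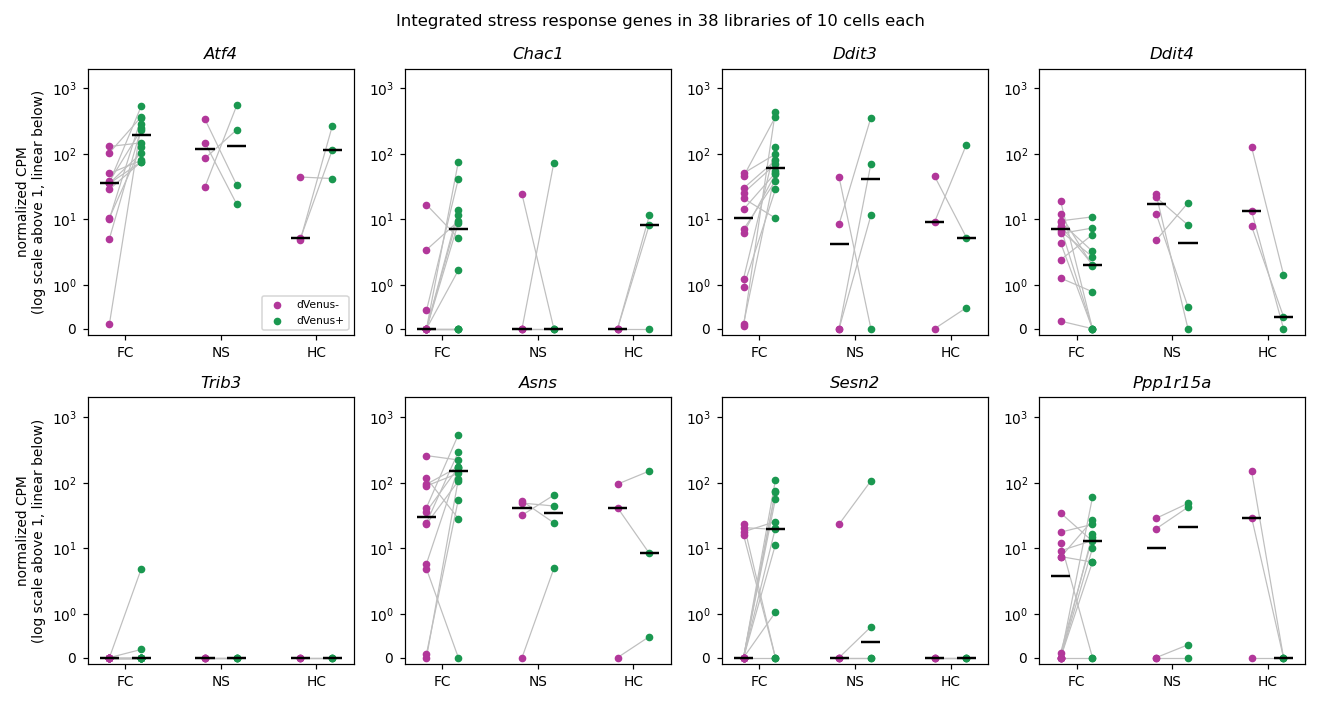
Normalized CPM of each of the 8 genes (vertical axis, logarithmic above 1 and linear below) in FC, NS and HC mice, with 1 point per library of 10 cells, dVenus- in magenta on the left and dVenus+ in green on the right, grey lines joining the libraries of a mouse and black bars at the medians. Atf4 was higher in dVenus+ cells in 12 of 12 FC mice, whereas the lines cross in NS mice.

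In FC mice, Atf4 and Ddit3 were higher in dVenus+ cells, by a log2 fold change of 2.64 and 2.79. The targets Asns, Sesn2 and Chac1 and the phosphatase subunit Ppp1r15a had estimates in the same direction that did not pass edgeR's test, and Ddit4 had an estimate below 0 that did not pass it. Of the 8 genes, 6 passed the count filter in FC mice, which asked for 10 counts or more in 12 or more of the 24 libraries, and 2 of these 6 were called by edgeR's quasi-likelihood test, at a Benjamini-Hochberg adjusted p under 0.05 and an absolute log2 fold change over 1. Over all genes of this fit, 422 of 9709 passed, or 4.35%, of which dVenus+ cells had the higher level in 146 and the lower in 276. The median log2 fold change of the 6 genes was 2.43, beside -0.11 over all genes tested. The genes were chosen with earlier results of these data known, so this contrast is a description and not a test. Because each library is a pool of 10 cells, a change in the number of cells that express a gene and a change of RNA per cell cannot be told apart.

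Atf4 (chr15:80255184-80257545, plus strand, GRCm38) encodes the transcription factor at the center of the response. In FC mice its level in dVenus+ libraries had a lowest value of 75.7, a median of 191 and a highest of 536 CPM. In dVenus- libraries the lowest was 0.111, the median 35.6 and the highest 129.7 CPM. The groups overlapped, although 7 of the 12 dVenus+ libraries lay above every dVenus- library and each mouse had the higher level in its dVenus+ cells. The means were 220.0 ± 146 CPM (SD, n = 12) in dVenus+ and 40.4 ± 39.3 CPM (n = 12) in dVenus- libraries. The log2 fold change was 2.64 ± 0.60 (SE), a 6.23-fold higher level, with an adjusted p of 0.00964 (edgeR). The mean difference of log2(CPM + 1) was 3.04, 2.31 and 3.26 in the sets of 2, 4 and 6 mice, and the level was higher in dVenus+ cells in every mouse of each set.

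The lowest value belongs to the dVenus- library of mouse 9, with 1 count on Atf4 and 12061108 counts on genes, and without this mouse the log2 fold change was 2.32 with an adjusted p of 0.0117. Over the 12 fits that left out 1 mouse, the adjusted p of Atf4 stayed between 0.00801 and 0.0275. The call was lost with the older quasi-likelihood method of edgeR, which is the default of the version used (adjusted p = 0.0722), and in the 4 or the 6 mice of a single set (0.458 and 0.264).

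Ddit3 (chr10:127290793-127296291, plus strand) encodes CHOP, a transcription factor that ATF4 induces and that is known for its part in cell death under lasting stress. Its level in FC dVenus+ libraries had a lowest value of 10.5, a median of 61.8 and a highest of 442 CPM. In dVenus- libraries the lowest was 0.0639, the median 10.7 and the highest 50.7 CPM. It was higher in dVenus+ cells in 11 of 12 mice, all but mouse 5, and 8 of the 12 dVenus+ libraries lay above every dVenus- library. The means were 118 ± 138 CPM and 16.8 ± 17.8 CPM (SD, n = 12 each). The log2 fold change was 2.79 ± 0.70 (SE), with an adjusted p of 0.0195 (edgeR).

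Leaving out 1 mouse gave adjusted p-values between 0.0101 and 0.0484 for Ddit3. Its call was lost without the count filter (adjusted p = 0.0563), with the older quasi-likelihood method (0.132) and in the 4 or the 6 mice of a single set (0.703 and 0.140, with log2 fold changes of 1.18 and 3.81). Ddit3 overlaps Mbd6 and Mars1 in the annotation, and the library kit does not mark strand. Mars, the symbol of Mars1 in the files, had a log2 fold change of 0.03 and an adjusted p of 0.994 in FC mice.

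**Figure D2:**
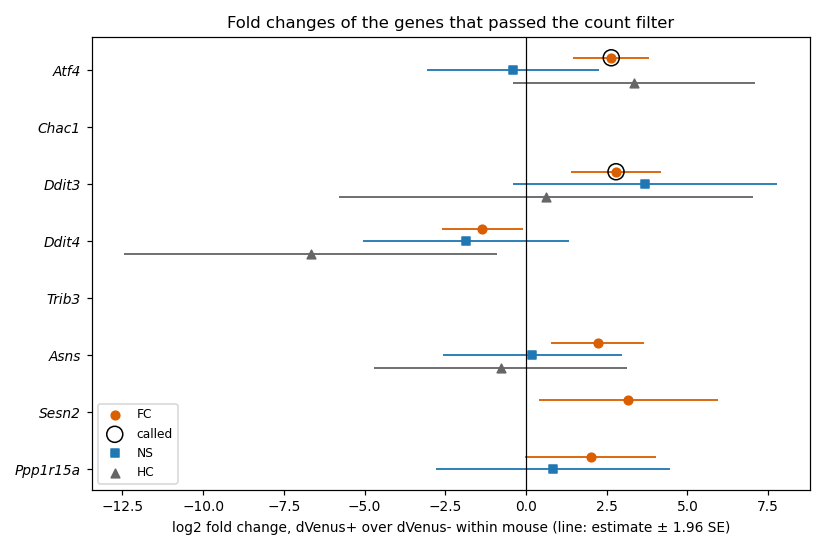
Log2 fold change of dVenus+ over dVenus- cells within mouse (horizontal axis) for the genes that passed the count filter, in FC (orange circles), NS (blue squares) and HC mice (grey triangles), with lines for approximate confidence intervals from the SE and black rings around called genes. Rings surround Atf4 and Ddit3 in FC mice, and the lines of NS and HC mice are wider.

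Asns, Sesn2, Chac1 and Trib3, targets of ATF4 in amino acid metabolism, nutrient sensing and feedback, were not called by edgeR, whereas DESeq2 called Asns and Sesn2. Asns (chr6:7675165-7693209, minus strand), asparagine synthetase, ranged in FC mice from 0 to 540.3 CPM in dVenus+ libraries, with a median of 153, and from 0 to 259.6 CPM in dVenus- libraries, with a median of 30.5. It was higher in dVenus+ cells in 9 of 12 mice and lower in mice 5, 7 and 12. The log2 fold change was 2.22 ± 0.73 (SE), with an adjusted p of 0.0805 (edgeR), and without mouse 7 the adjusted p was 0.0429.

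Sesn2 (chr4:132492804-132510456, minus strand), a stress-induced leucine sensor that restrains mTORC1 signaling, was at 0 counts in 3 of 12 dVenus+ and in 8 of 12 dVenus- libraries. The medians were 19.9 and 0 CPM, and the highest values 110.1 and 23.9 CPM. Thus 5 dVenus+ libraries lay above every dVenus- library, while 3 mice had the lower value in dVenus+ cells. Sesn2 passed the count filter with 8 dVenus+ and 4 dVenus- libraries at 10 counts or more. The log2 fold change was 3.17 ± 1.41 (SE), with an adjusted p of 0.227.

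Chac1 (chr2:119351242-119354326, plus strand), an enzyme that degrades glutathione, was at 0 in 4 of 12 dVenus+ and 9 of 12 dVenus- libraries and did not pass the count filter. The medians were 7.02 and 0 CPM and the highest values 75.7 and 16.8 CPM. Its level was higher in dVenus+ cells in 7 mice, lower in mouse 6 and 0 in both cell types in 4 mice. In the fit without a count filter its log2 fold change was 4.27 ± 1.32 (SE), with an adjusted p of 0.104. Trib3 (chr2:152337425-152344060, minus strand), a pseudokinase that binds ATF4 and restrains it, had 11 counts in all 38 libraries, 10 of them in the dVenus+ library of mouse 3 and 1 in that of mouse 7. Its summed level in dVenus+ cells was at least 5.04-fold higher than the 3 counts that 0 counts over the FC dVenus- libraries allow, a bound that rests on mouse 3. Trib3 was not detectable at this depth in NS and HC mice.

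Ppp1r15a (chr7:45522917-45526268, minus strand), which overlaps Tulp2 in the annotation, encodes GADD34, the phosphatase subunit that reverses the phosphorylation of eIF2. Its medians in FC mice were 13.0 CPM in dVenus+ and 3.72 CPM in dVenus- libraries, and the highest values 59.8 and 34.6 CPM. It was higher in dVenus+ cells in 8 mice and lower in 3, and was at 0 in 2 of the dVenus+ and 5 of the dVenus- libraries. The log2 fold change was 2.00 ± 1.03 (SE), with an adjusted p of 0.315.

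Ddit4 (chr10:59949675-59951770, minus strand) encodes REDD1, an inhibitor of mTORC1 that glucocorticoids and low oxygen induce as well. Of the genes that passed the count filter in FC mice, it had the sole estimate below 0. Its lowest, median and highest levels in FC mice were 0, 2.01 and 10.9 CPM in dVenus+ and 0.173, 7.08 and 19.0 CPM in dVenus- libraries. The level was lower in dVenus+ cells in 9 of 12 mice. The log2 fold change was -1.36 ± 0.64 (SE), with an adjusted p of 0.256.

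DESeq2's Wald test called 5 of the 6 genes that passed the count filter in FC mice, all higher in dVenus+ cells. They were Atf4, Ddit3, Asns, Sesn2 and Ppp1r15a. Over all 9709 genes it called 1647, beside 422 with edgeR. Compared per kilobase of exon, the mean levels in FC dVenus+ cells were 133 ± 155 CPM per kb for Ddit3, 128 ± 84.7 for Atf4 and 83.8 ± 71.6 for Asns (SD, n = 12 each), which do not differ beyond their spread. Sesn2 had 9.37 ± 10.6, Chac1 8.55 ± 13.8, Ppp1r15a 6.76 ± 6.90, Ddit4 1.66 ± 1.98 and Trib3 0.208 ± 0.693 CPM per kb.

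**Figure D3:**
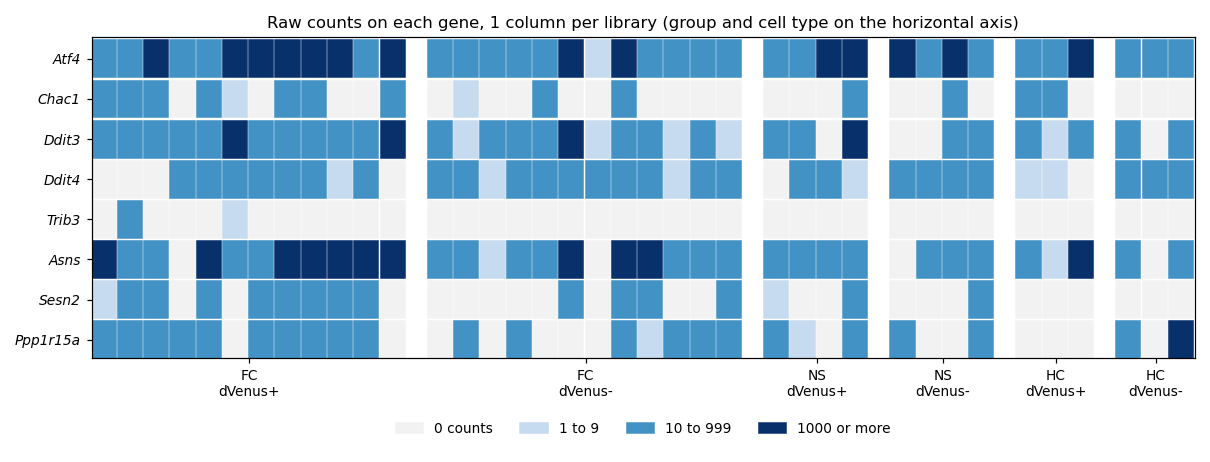
Raw counts on each of the 8 genes (rows) in each of the 38 libraries (columns, in order of mouse number within each group), shaded darker for higher counts as given in the key. Atf4 has 10 or more counts in all but 1 library, Trib3 in 1, and Sesn2 and Chac1 are empty in most dVenus- libraries.

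The mice differed in which of the genes were higher. Of the 8 genes, between 2 and 7 were higher in the dVenus+ cells of each FC mouse. Mouse 5 had 2 higher and 3 lower, whereas mice 3 and 11 had 7 higher. The dVenus+ library of mouse 14 held the highest Atf4, Ddit3, Asns and Chac1 levels of the FC mice (536, 442, 540.3 and 75.7 CPM) and 0 counts on Sesn2, Ppp1r15a and Ddit4. Between 4 and 7 of the genes reached 10 counts in FC dVenus+ libraries and between 1 and 7 in dVenus- libraries.

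Markers of other cells moved with the cell type in FC mice as well. Of 13 microglial markers, 10 were tested, and all 10 had estimates above 0, beside 45.9% of all genes tested. Of these markers, 5 were called higher in dVenus+ cells (Csf1r, Aif1, C1qa, C1qc and Tyrobp). Their summed level ran from 42.5 to 2448 CPM in dVenus+ and from 1.26 to 1097 CPM in dVenus- libraries and was higher in dVenus+ cells in 10 of 12 FC mice. None of the 13 was at 0 in all libraries of either FC group, and in the median library 1 was at 0 in dVenus+ and 8 in dVenus- cells. Of the 9 granule cell markers, 5 were called lower in dVenus+ cells (Calb1, C1ql2, Stxbp6, Camk2a and Neurod1), and their sum ran from 372 to 2832 CPM in dVenus+ and from 1366 to 4046 CPM in dVenus- libraries. Among 6 RNAs retained in the nucleus, Malat1 and Snhg11 were called higher and Miat lower. Snhg11 lost its call in 6 of 12 fits that left out 1 mouse and in 5 of 9 other settings (adjusted p up to 0.471), while Miat lost it in 0 of 12 and 3 of 9 (up to 0.589) and Malat1 in 0 of 12 and 1 of 9 (0.0923). Of the interneuron markers 1 of 3 tested was called lower, and 0 of 4 astrocyte and 0 of 4 oligodendrocyte markers were called by edgeR, with 2 and 1 at an unadjusted p under 0.05 and 1 and 2 called by DESeq2. No marker of endothelium or of oligodendrocyte precursors passed the count filter. The part of these differences in the values of Atf4 and its targets was not tested.

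None of the 8 genes was called in NS mice. Of the 5 that passed the count filter (10 counts in 4 of 8 libraries), 0 were called by edgeR and 0 had an unadjusted p under 0.05, beside 4 of 8187 genes called, or 0.0489%, and 710 with an unadjusted p under 0.05. DESeq2's Wald test called Ddit3 alone of the 8 and 671 genes in all. The Atf4 levels in NS mice 18, 19, 20 and 21 were 33.2, 17.0, 234 and 550.1 CPM in dVenus+ and 338, 148, 85.4 and 31.5 CPM in dVenus- cells. Thus mice 18 and 19 had the lower and mice 20 and 21 the higher value in dVenus+ cells, and the log2 fold change was -0.41 ± 1.36 (SE), with an adjusted p of 0.947. It was 0.40 without the mouse as a block and ran from -1.87 to 1.01 when 1 mouse was left out.

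The Ddit3 levels in the same NS mice were 11.5, 70.9, 0 and 358 CPM in dVenus+ and 0, 0, 44.1 and 8.47 CPM in dVenus- cells. It was higher in dVenus+ cells in 3 of 4 mice, with a log2 fold change of 3.70 ± 2.09 (SE) and an adjusted p of 0.613, and without mouse 21 the log2 fold change was 1.87. Asns was at 4.93, 44.2, 24.4 and 64.7 CPM in dVenus+ and at 0, 49.0, 52.8 and 32.05 CPM in dVenus- cells. Its log2 fold change was 0.19 ± 1.42 (SE). In NS mice the highest dVenus+ level of Atf4, Ddit3, Asns, Sesn2 and Chac1 lay in mouse 21 each time.

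Chac1 and Sesn2 were counted in few NS libraries. Chac1 was present in the dVenus+ library of mouse 21 (73.5 CPM) and the dVenus- library of mouse 20 (24.1 CPM) and at 0 in the other 6. Sesn2 was present in both libraries of mouse 21 (106.9 CPM in dVenus+ and 23.4 CPM in dVenus- cells) and with 5 counts in the dVenus+ library of mouse 18. Ppp1r15a was at 48.5, 0.293, 0 and 42.4 CPM in dVenus+ and at 28.7, 0, 0 and 19.9 CPM in dVenus- cells. Ddit4 was at 0, 17.9, 8.22 and 0.502 CPM in dVenus+ and at 24.1, 4.83, 21.8 and 12.2 CPM in dVenus- cells, lower in dVenus+ cells in 3 of 4 mice, with a log2 fold change of -1.86 ± 1.64 (SE).

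In HC mice 4 of the 8 genes passed the count filter (10 counts in 3 of 6 libraries), and edgeR called 0 of them and 0 of 7588 genes (0.0%). An unadjusted p under 0.05 was given to 1 of the 4, Ddit4, and to 532 genes. DESeq2's Wald test called 629 genes, Ddit4 alone among the 8. Arc, with a log2 fold change of 8.33 in HC mice, was called by DESeq2 but not by edgeR. The lack of edgeR calls in HC mice therefore does not show a lack of differences. Atf4 was at 42.0, 115 and 268 CPM in the dVenus+ and at 44.3, 5.16 and 4.92 CPM in the dVenus- cells of mice 15, 16 and 17. The levels were close in mouse 15 and higher in dVenus+ cells in the other two, with a log2 fold change of 3.33 ± 1.91 (SE) and an adjusted p of 0.723.

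In HC mice the dVenus+ and dVenus- levels of Ddit4 did not overlap, with 3 libraries on each side. The share of all genes for which this holds was not counted. Ddit4 had 1, 3 and 0 counts in dVenus+ libraries (0.278, 1.44 and 0 CPM) and 106, 608 and 135 counts in dVenus- libraries (7.81, 125.6 and 13.3 CPM). All 3 mice had the lower value in dVenus+ cells. The fitted log2 fold change, from dVenus+ libraries with at most 3 counts, was -6.67 ± 2.95 (SE), with an adjusted p of 0.698 (edgeR) and of 0.00651 with DESeq2. Ddit4 passed the count filter in HC mice through the 3 dVenus- libraries alone. Its entry into the HC fit thus depended on the side where it was high, and the direction there is a description. Ddit4 had estimates below 0 in the FC, NS and HC fits, with this limit on the HC fit.

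Ppp1r15a was at 0 in all 3 HC dVenus+ libraries and had 398, 0 and 1512 counts in the dVenus- libraries of mice 15, 16 and 17. Its summed level in dVenus- cells was at least 531-fold higher than 3 counts over the dVenus+ group allow, and at least 97.7-fold higher without mouse 17. Chac1 had 30, 24 and 0 counts in dVenus+ and 0 in all dVenus- libraries, at least 21.6-fold higher in dVenus+ cells on the same floor, and at least 8.81-fold higher without mouse 15. Sesn2 and Trib3 were at 0 in all 6 HC libraries. Ddit3 was at 5.29, 0.481 and 139 CPM in dVenus+ and at 45.6, 0 and 9.15 CPM in dVenus- cells, and its log2 fold change of 0.62 ± 3.27 (SE) was -3.05 without mouse 17.

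The summed level of the microglial markers was higher in dVenus+ cells of 4 of 4 NS and 3 of 3 HC mice too, but not every marker was higher in each of these mice. Tyrobp was lower in dVenus+ cells of 2 of 4 NS and 2 of 3 HC mice. Of the microglial markers, edgeR called 0 of 7 tested in NS and 0 of 10 in HC mice, with 3 and 2 at an unadjusted p under 0.05 and 5 and 3 called by DESeq2. Their sum ran from 109.9 to 1909 CPM in dVenus+ and from 7.26 to 672 CPM in dVenus- libraries of NS mice, and from 549 to 1673 and from 58.2 to 529 CPM in those of HC mice. The granule cell markers had the lower sum in dVenus+ cells of 4 of 4 NS and 3 of 3 HC mice, and edgeR called 0 of 9 in each, with 2 and 1 at an unadjusted p under 0.05 and 2 and 0 called by DESeq2. Estimates were above 0 for 6 of 7 astrocyte markers tested in NS and 6 of 6 in HC mice. Over all genes tested these shares were 52.0% and 50.4%. In FC mice, 0 of 4 astrocyte markers had estimates above 0. EdgeR called 0 astrocyte markers in NS and HC mice, while DESeq2 called Aldh1l1 and Gfap in NS and Aqp4 and Gja1 in HC mice. The astrocyte sum was higher in dVenus+ cells of 3 of 12 FC, 2 of 4 NS and 3 of 3 HC mice. The RNAs retained in the nucleus had the higher sum in dVenus+ cells of 4 of 4 NS and 3 of 3 HC mice. In NS mice edgeR called Malat1 (log2 fold change 1.81, adjusted p = 0.000116) and Snhg11 (4.87, 0.0182) higher, of 5 tested. DESeq2 called Snhg11 alone of them. In HC mice both tools called 0 of 5. The part of these marker and nuclear RNA lists in the values of the 8 genes was not tested.

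An interaction tested whether the dVenus+ against dVenus- difference itself differed between FC mice and NS or HC mice. It covered the 14075 genes that reached 10 counts in 3 or more libraries. FC mice share no sample ID prefix with the others, so training history and set cannot be told apart here. For FC minus NS, edgeR gave 0 of the 7 genes tested an adjusted p under 0.05 (0 genes in all, 0.0%), and 0 of the 7 and 1152 of all genes had an unadjusted p under 0.05. DESeq2 gave 0 of the same 7 genes and 1293 of all genes an adjusted p under 0.05. The interaction estimate was 3.03 ± 1.67 (SE, log2) for Atf4, with an adjusted p of 0.651, and -1.21 ± 2.18 for Ddit3, with an adjusted p of 0.950. The call of Atf4 in FC and its lack in NS mice was therefore not shown to be a difference between these groups.

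For FC minus HC, edgeR gave 0 of 7 genes and 0 of all genes (0.0%) an adjusted p under 0.05. The unadjusted p was under 0.05 for 2 of the 7, Ddit4 and Ppp1r15a, and for 1304 genes. DESeq2 called 1672 genes, among them Ppp1r15a and Sesn2, both of which rest on HC libraries at 0. The estimate was -0.86 ± 1.77 (SE, log2) for Atf4, with an adjusted p of 0.978, and 1.97 ± 2.80 for Ddit3. For Ddit4 it was 5.17 ± 2.47, with an adjusted p of 0.535.

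Levels of NS and HC mice, which share a sample ID prefix, were compared in each cell type. In dVenus+ cells, edgeR called 0 of 4 genes tested and 0 of 8706 genes (0.0%), with 0 and 773 at an unadjusted p under 0.05, and DESeq2 called 0 and 110. In dVenus- cells it called 0 of 5 and 0 of 8547 genes (0.0%), with 1 (Atf4) and 756 at an unadjusted p under 0.05, and DESeq2 called 0 and 144. Atf4 in dVenus- cells was at a mean of 151 ± 133 CPM (SD, n = 4) in NS and 18.1 ± 22.7 CPM (n = 3) in HC mice, a log2 difference of 2.88 ± 1.33 (SE) with an adjusted p of 0.530. In dVenus+ cells the means of Atf4 were 208 ± 248 and 142 ± 115 CPM. By the medians of the 6 groups, Atf4 was highest in FC dVenus+ cells (191 CPM), followed by NS dVenus+ (133), NS dVenus- (117), HC dVenus+ (115), FC dVenus- (35.6) and HC dVenus- cells (5.16), and the ranges of neighbors in this order overlapped.

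The genes around ATF4 were examined in FC mice as lists, which were chosen with earlier results of these data known. Among 12 aminoacyl tRNA synthetases, which charge tRNAs with amino acids and of which many are ATF4 targets, 11 had estimates above 0 and 3 were called higher in dVenus+ cells. These were Aars (alanine), Nars (asparagine) and Tars (threonine). Over all 9709 genes of the FC fit, 45.9% had estimates above 0 and 146 were called higher. The median log2 fold change of the list was 0.98, and the list's sum was higher in dVenus+ cells in 12 of 12 mice. Nars was at 393 ± 312 CPM in dVenus+ and 126 ± 76.7 CPM in dVenus- libraries (SD, n = 12 each) and higher in 12 of 12 mice, with a log2 fold change of 1.57 ± 0.43 (SE) and an adjusted p of 0.0343 (edgeR).

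Aars rose by a log2 fold change of 2.22 ± 0.56 (SE, adjusted p = 0.0207), higher in 10 of 12 mice, and Tars by 2.29 ± 0.65 (adjusted p = 0.0392), higher in 11 of 12. These calls were close to the threshold. When 1 mouse was left out, Aars lost its call in 1 of 12 fits (mouse 14), Nars in 6 (mice 3, 5, 6, 12, 13 and 14) and Tars in 9 (all but mice 5, 7 and 11), with adjusted p-values up to 0.0567, 0.0797 and 0.0957. Over 9 other settings, Aars lost its call in 3, Nars in 5 and Tars in 6, with adjusted p-values up to 0.772, 0.546 and 0.635, each in the set of 4 mice. DESeq2 called 5 of the 12 in FC mice, Cars and Eprs beside these 3, against 1647 of all 9709 genes. In NS mice edgeR called 0 of 11 tested, with 1 at an unadjusted p under 0.05 and 1, Lars, called by DESeq2. In HC mice both tools called 0 and 0 of 12 had an unadjusted p under 0.05, and the medians of the list in NS and HC mice were 1.00 and 0.58.

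**Figure D4:**
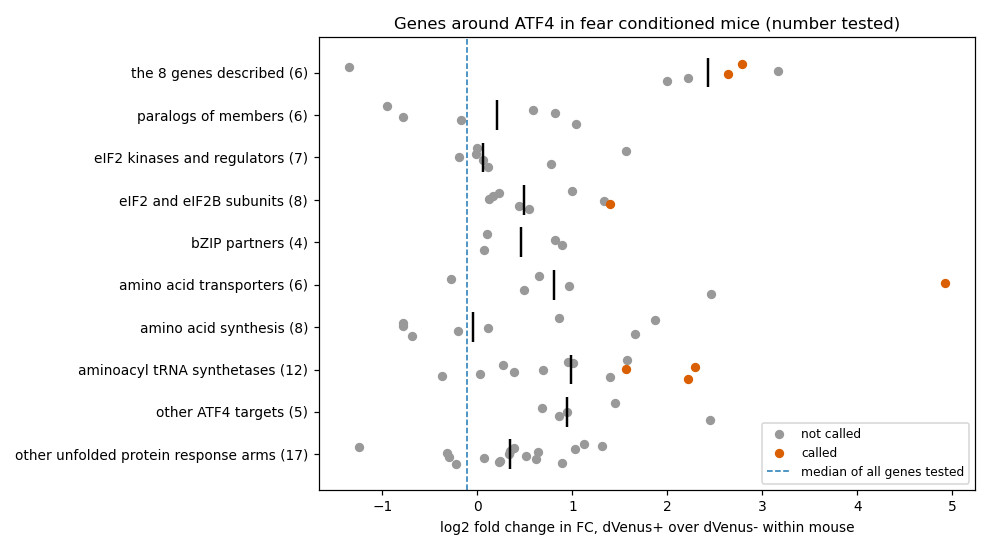
Log2 fold change in FC mice (horizontal axis) of each gene that passed the count filter, by list (number tested in parentheses), called genes in orange, others in grey, black bars at the list medians and a dashed line at the median of all genes tested. The called genes around ATF4 lie among the aminoacyl tRNA synthetases, the amino acid transporters and the eIF2 subunits.

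Upstream of ATF4, 0 of 7 eIF2 kinases and their regulators were called in FC mice by edgeR, with 1 at an unadjusted p under 0.05 and a median of 0.05, and DESeq2 called 1, Impact. Impact, an inhibitor of the kinase GCN2, had a log2 fold change of 1.56 ± 0.47 (SE) with an adjusted p of 0.0514, which was 0.0213 without mouse 7 and 0.0375 without mouse 10. All 8 subunits of eIF2 and its exchange factor eIF2B had estimates above 0 (median 0.49), beside 45.9% of all genes tested. Eif2s2, the beta subunit of eIF2, was called. It was at 170.3 ± 149 CPM in dVenus+ and 58.4 ± 34.8 CPM in dVenus- libraries, with a log2 fold change of 1.39 ± 0.41 (SE) and an adjusted p of 0.0498. Its call was lost in 11 of 12 fits that left out 1 mouse, all but that without mouse 4, and the adjusted p reached 0.115 without mouse 14. It was also lost in 6 of 9 other settings (adjusted p up to 0.881).

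Of 9 amino acid transporters, 6 were tested and Slc7a3, a carrier of cationic amino acids, was called, at 37.4 ± 52.6 CPM in dVenus+ and 2.77 ± 6.24 CPM in dVenus- libraries. It was higher in 8 and lower in 3 of 12 mice, with an adjusted p of 0.0291. Slc7a3 passed the count filter in 9 of the 12 fits that left out 1 mouse and kept its call in 3 of them. The call was lost without mouse 4, 5, 6, 10, 12 or 13 and in 3 of 8 other settings (adjusted p up to 0.154). DESeq2 called Slc7a3 and Slc38a2. Of the enzymes of amino acid synthesis, 4 of 8 tested had estimates above 0 and 4 below, between -0.79 (Got1) and 1.87 (Psph), with a median of -0.05. Here edgeR called 0, DESeq2 called 0 and 0 had an unadjusted p under 0.05. Pck2, named here after its values were seen, did not pass the filter, and in the fit without one its log2 fold change was -4.05 ± 1.37 (SE), with an adjusted p of 0.162, lower in 8 and higher in 1 of 12 mice. Psph, of serine synthesis, was at 74.9 ± 156 CPM in dVenus+ and 10.9 ± 14.1 CPM in dVenus- libraries (adjusted p = 0.417), and Shmt2, of mitochondrial glycine synthesis, at 26.6 ± 25.2 and 15.0 ± 21.2 CPM.

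Of 5 other ATF4 targets tested, edgeR called 0 and 1, Vegfa, had an unadjusted p under 0.05 and was called by DESeq2. Vegfa, an angiogenic growth factor, had a log2 fold change of 2.44 ± 0.75 (SE) and an adjusted p of 0.0550, which was 0.0407 without mouse 10. Xpot, the exporter of tRNA from the nucleus, had 1.45 ± 0.73 with an adjusted p of 0.301. Of 4 partner transcription factors tested, 0 were called by edgeR, 0 by DESeq2 and 0 had an unadjusted p under 0.05, with Cebpg at 0.89 ± 0.75 and Atf5 at 0.82 ± 0.88. Atf3, named here after its values were seen, did not pass the filter. It was at 117 ± 148 CPM in dVenus+ and 0.170 ± 0.472 CPM in dVenus- libraries (SD, n = 12 each) and higher in dVenus+ cells in 11 of 12 mice. In the fit without a count filter its log2 fold change, which depends on dVenus- libraries near 0, was 9.51 ± 0.94 (SE), with an adjusted p of 4.93e-05 (edgeR). Mean Atf3 was 31.7 CPM in dVenus+ and 0.0464 CPM in dVenus- cells of NS mice, higher in 3 of 4. In HC mice it was 43.5 and 0 CPM, higher in 3 of 3. EdgeR called Atf3 in neither group. DESeq2 called it in HC mice, where it passed the filter through dVenus+ libraries alone.

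The other arms of the unfolded protein response, those of IRE1 and ATF6 with their chaperone targets, gave 0 called genes of 17 tested with edgeR, 0 with DESeq2 and 1 at an unadjusted p under 0.05, Canx (0.89 ± 0.34, adjusted p = 0.137). Their median was 0.34, and Pdia6, a disulfide isomerase, had 1.31 ± 0.72. Paralogs of the 8 genes gave 0 called of 6 tested with edgeR and 0 at an unadjusted p under 0.05, with 1 (Trib2, lower in dVenus+ cells) called by DESeq2 and a median of 0.20. Ddit4l, the paralog of Ddit4, had 1.04 ± 0.69 (adjusted p = 0.455) and Chac2, the paralog of Chac1, -0.95 ± 0.77 (0.572). Of 5 immediate early genes tested, Dusp1, a phosphatase of MAP kinases, was called higher, at 4.97 ± 1.24 with an adjusted p of 0.0179, a call lost in 1 of 8 other settings (0.512).

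The genes most like Atf4 were ranked by Spearman's rho of the within-mouse differences of log2(CPM + 1) over 19 mice, among 9708 genes. They were Rfwd2 (0.781), Clta (0.761), Mcu (0.716), Ube2h (0.689) and Fam98a (0.677). These rhos are the highest of 9708 and pool FC, NS and HC mice. In FC mice the log2 fold changes of these genes were 2.99, 0.75, -0.91, 0.83 and 3.43. Their adjusted p-values were 0.0027, 0.346, 0.668, 0.594 and 0.00407 (edgeR). Of the integrated stress response genes, Asns had a rho of 0.335 with Atf4, Sesn2 0.326, Chac1 0.286, Ddit3 0.282, Ppp1r15a 0.281, Trib3 0.0329 and Ddit4 -0.296. Asns ranked 770th, Sesn2 826th, Ddit3 1098th and Ppp1r15a 1108th among the 9708 genes. All points share the TMM scaling, and both differences of a point come from the same pair of libraries.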

How the data were processed

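RNA of 10 dVenus+ and 10 dVenus- cells per mouse was sequenced in 38 libraries of 19 mice. The deposited values are counts: per the labels and the study's methods, the authors amplified cDNA with SmartSeq2, mapped single reads to mm10 with TopHat2 2.0.13 and used HTSeq 0.6.0 to count those with a unique alignment per gene of the NCBI annotation, without normalization. The 5 entries that name no gene were left out. Reads outside genes came to between 16.4% and 59.7%. The authors' table of the whole series was not used.

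Counts were tested with edgeR 4.0.16 (TMM, estimateDisp, glmQLFit, glmQLFTest, two-sided) in R 4.3.3, blocking on the mouse, in a separate fit for each of FC, NS and HC. Both cell types of a mouse share the animal: in FC mice the median correlation of their deviations from group means was 0.0486, while NS mice had -0.0151 and HC mice 0.0244. The newer quasi-likelihood method was set as the main one (legacy = FALSE) after both methods' results had been seen. The default of this version, the older method, is given as an alternative. SEs were derived from the F statistic and are approximate. Interactions were fitted over all libraries, and NS against HC levels without a block. The alternatives were DESeq2 1.42.0 (its size factors or its Wald test), other count filters, no block, single FC sets of a shared sample ID prefix, the share of reads outside genes as a covariate and leaving out each mouse. Scripts were tested on simulated data.

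The 8 genes and all lists (kinases, eIF2, partners, transporters, synthesis, synthetases, targets, unfolded protein response, paralogs, immediate early genes, nuclear RNA, cell markers) were chosen with earlier results of these data known. Named genes were the 8, Arc, from each list the called genes (at most 4, otherwise the 2 with the smallest p in FC mice) and the 5 genes most like Atf4. Gene positions are from RefSeq on GRCm38, the build of mm10. Exon lengths are from GENCODE transcripts with a RefSeq match.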

Additional observations from a re-analysis of the deposited data

Results flagged for a closer look

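In 4 of 14 groups of 4 NS libraries with differing values, 1 library lay far from the other three by Dixon's ratio of the gap to the range. The usual rate of this ratio, about 1 in 20 groups, holds for normally distributed values. A gene counted in 1 library alone always reaches a ratio of 1, so no excess can be read from the 4 groups. The dVenus+ library of mouse 21 had 73.5 CPM of Chac1 beside 0 in the others and 106.9 CPM of Sesn2 beside at most 0.704. The dVenus- library of mouse 21 had 23.4 CPM of Sesn2 and that of mouse 20 had 24.1 CPM of Chac1, each beside 0 in the others. Neither gene passed the count filter in NS mice.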

How the results depend on the processing

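In FC mice, 2 of the 8 genes were called, 0 with the older quasi-likelihood method, 1 without a count filter (Atf4), 5 with DESeq2, and 0 in the 4 or the 6 mice of a single set. The calls over all genes in these settings numbered 137 with the older method, 303 without a count filter, 1647 with DESeq2, and 12 and 15 in the single sets, beside 422. Fewer mice enter the single-set fits, and the cause of the other changes was not tested. Without the mouse as a block, the 2 genes kept their calls, and Atf5 had a log2 fold change of -0.25. In NS mice, 4 genes were called (3 higher and 1 lower), 0 with the older method, 11 with DESeq2's size factors (5 higher and 6 lower), 1 without a filter, 13 without the block, 671 with DESeq2 and 0 to 2 when 1 mouse was left out. In HC mice, 0 were called, 2 with the older method and 629 with DESeq2. DESeq2 called 1 of the 8 genes in NS, 1 in HC mice and 2 in the interaction of FC minus HC.

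Signs changed in fits where no call was made. Without the block, the log2 fold change was 0.40 for Atf4 and -0.11 for Asns in NS mice. For Asns in HC mice it was 0.13 with the older method, 0.028 with DESeq2 and 0.029 without the block. Leaving out 1 mouse gave -1.87 to 1.01 for Atf4 and -0.18 to 0.73 for Asns in NS mice, and -3.05 to 3.72 for Ddit3 and -2.30 to 0.53 for Asns in HC mice. For NS minus HC the ranges were -0.64 to 1.45 (Atf4), -0.91 to 5.07 (Ddit3) and -1.28 to 2.79 (Asns) in dVenus+ cells. In dVenus- cells they were -2.50 to 1.48 (Ddit3), -2.11 to 0.61 (Ddit4) and -0.97 to 0.56 (Asns). A library with 0 counts on Chac1, Sesn2 or Trib3 allows a level of up to between 0.163 and 2.22 CPM, by its depth.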
